A study of Mus musculus with 8 samples.

Results

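The genes described here are 10 outputs and repressors of the circadian clock, measured as heart transcripts: Dbp, Tef and Hlf (the PAR bZIP factors), Ciart and Bhlhe41 (repressors of the clock activator), the period genes Per1, Per2 and Per3, and the REV-ERB genes Nr1d1 and Nr1d2. They were chosen by name, with the diet comparison of these libraries already known, and are 10 of the 30153 genes in the deposited table. The hearts came from aged C57/BL6 mice that all had the haplotype II form of a human gene, the angiotensin II type 1 receptor, which the series title describes as overexpressed. In 4 libraries the mice had also received a western diet (a diet high in fat and sugar), and in the other 4, called control here, they had not. The labels give no promoter for the human gene and no age in months, sex, duration of feeding or time of day of collection. They also do not say whether each library is 1 animal, so the spread given here is that between libraries.

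The circadian clock is a feedback loop that runs in most cells, heart muscle included. The activator pair CLOCK and BMAL1 (encoded by Arntl) binds E-box sequences and switches on the period and cryptochrome genes, whose proteins then inhibit the pair, and the REV-ERB and PAR bZIP genes. REV-ERB proteins repress Arntl, so that in a rhythmic tissue Arntl peaks when the REV-ERB genes are low, while the PAR bZIP proteins bind D-box sequences and carry the rhythm to genes of metabolism and detoxification. Because all of these transcripts swing over the day, levels at unstated times give neither their amplitude nor their daily mean. The labels do not say whether the libraries or the diet groups were collected at the same time of day. The part of collection time in the differences below was therefore not tested.

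Levels are in TPM (transcripts per 1000000 transcripts), which corrects for transcript length and can be compared between genes. Read depth cannot be recovered from TPM, so the counting error of low genes is unknown. All 10 genes reached 1 TPM in at least 4 of the 8 libraries and were among the 10969 genes tested. Per2 was nearest that limit, with 5 libraries at or above 1 TPM, 3 of them control and 2 western diet. In these bulk samples, fewer cells of a type and less RNA per cell cannot be told apart.

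Several libraries stood apart before any clock gene was considered. The Y-linked gene Eif2s3y reached 1 TPM in the 4 controls and in western diet replicate 4, but not in western diet replicates 1, 2 and 3. The presence of Y-linked transcripts, and with it perhaps sex, thus nearly coincided with the diet group. Apart from western diet replicate 4, the parts of diet and of sex in the differences below cannot be told apart. Myl7, a myosin light chain of the atria, reached 100 TPM in western diet replicate 2 and in control replicates 1 and 3. Markers of heart muscle were abundant in all libraries, with 8 markers summing to 39722 to 49526 TPM with western diet and 46990 to 51480 TPM in control. The 4 kidney markers (Kap, Umod, Miox and Slc34a1) summed to 9.02 to 79.0 TPM with western diet, highest in replicate 4, and to 0 to 0.685 TPM in control, where Umod, Miox and Slc34a1 were listed at 0. Of these only Kap was tested, and it rose (log2 fold change 3.83, limma adjusted p = 0.0169), where 0.228% of tested genes were called higher. Kap entered the test only because its 4 western diet libraries reached 1 TPM. The 4 red cell markers summed to 1429 to 10036 TPM with western diet, highest in replicate 1, and to 1757 to 3252 TPM in control. Of 4 smooth muscle and pericyte markers, Tagln fell, to 10.002 ± 1.41 TPM with western diet against 18.6 ± 2.22 TPM in control (limma adjusted p = 0.0169), and the list summed to 73.0 to 140.2 TPM with western diet and 59.4 to 79.1 TPM in control. The others did not pass: Pdgfrb was at 11.5 ± 0.971 TPM with western diet and 14.8 ± 0.886 TPM in control, Myh11 at 1.79 ± 0.365 TPM and 3.06 ± 0.812 TPM for western diet and control, and Acta2 at 80.8 ± 29.1 TPM with western diet and 33.4 ± 5.99 TPM in control (SD, n = 4 each). The 4 skeletal muscle markers summed to 139 to 449 TPM with western diet and 71.8 to 127 TPM in control, nearly all of it Acta1, with Myh4 at or near 0 in every library. The 4 adipocyte markers summed to 0.267 to 1.97 TPM with western diet and 0.105 to 28.3 TPM in control. Their sum was highest in control replicate 3, which was also the highest library for Myl7. Fits with a term for Y-linked transcripts, and fits without the libraries with atrial transcripts, are given below. The part of the other marker transcripts in the results below was not tested.

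The promoters of these genes were searched for sequences through which clock proteins act, and the stretches with a match are shown because they differ between members. Dbp, Hlf and Nr1d2 had no match. The 250 bases before each start were read from RefSeq on GRCm38.p6, which held 11 starts for 9 of the 10 genes; Per2 had no entry. The motifs searched on both strands were the E-box CACGTG, its variant CACGTT, the D-box TTANGTAA and the RORE, to which REV-ERB proteins bind. Each is printed from 5′ to 3′ on the gene's own strand, with the matched bases in capitals.
Ciart, chr3:95882252-95882369, minus strand: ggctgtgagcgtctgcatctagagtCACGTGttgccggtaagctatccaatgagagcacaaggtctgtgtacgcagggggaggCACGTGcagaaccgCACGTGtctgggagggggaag
Tef, chr15:81811251-81811306, plus strand: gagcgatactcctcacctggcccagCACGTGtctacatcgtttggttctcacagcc
Per1, chr11:69098758-69098813, plus strand: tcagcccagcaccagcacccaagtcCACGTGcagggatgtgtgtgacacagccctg
Bhlhe41, chr6:145865559-145865598, minus strand: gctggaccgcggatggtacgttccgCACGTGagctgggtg
Nr1d1, chr11:98775378-98775430, minus strand: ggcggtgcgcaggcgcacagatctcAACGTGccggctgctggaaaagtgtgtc
Per3, chr4:151044791-151044895, minus strand: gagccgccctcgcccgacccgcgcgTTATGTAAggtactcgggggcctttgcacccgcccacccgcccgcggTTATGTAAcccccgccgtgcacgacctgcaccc

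The Ciart stretch held 3 E-boxes, starting 116, 58 and 44 bases before the start, and the Per3 stretch held 2 copies of one D-box, starting 205 and 158 bases before it. Tef had an E-box before both of its starts, and the second is the one shown. In all, 4 of the 9 genes had an E-box (Ciart, Tef, Per1 and Bhlhe41), which 6.02% of all 32851 RefSeq mouse starts have in a window of this length. The counts here are of genes with a match at any of their starts (11 starts for the 9 genes). The percentages are of single starts, so the units differ. The variant CACGTT was found in Nr1d1 alone of the 9, read there as AACGTG on the gene's strand, and in 3.85% of all starts. The D-box was found in Per3 alone of the 9 and in 2.06% of all starts, and the RORE in none of the 9 and in 0.332% of all starts. A match describes letters and shows no binding, and no match says only that these letters are not in this window.

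The PAR bZIP factors Dbp, Tef and Hlf were lower with western diet in every library. Hlf was at 2.71, 2.11, 2.90 and 2.06 TPM in western diet replicates 1 to 4, against 5.21, 4.99, 5.56 and 5.36 TPM in control replicates 1 to 4. The highest western diet library thus lay well under the lowest control, and the coefficient of variation was 17.2% with western diet and 4.54% in control. Its mean was 2.45 ± 0.420 TPM with western diet and 5.28 ± 0.240 TPM in control (SD, n = 4 each), a ratio of 0.463. Tef was at 29.9, 31.5, 30.4 and 34.2 TPM with western diet, against 40.7, 48.4, 43.2 and 46.7 TPM in control. It averaged 31.5 ± 1.94 TPM with western diet and 44.7 ± 3.46 TPM in control (SD, n = 4 each), a ratio of 0.704, and its groups did not overlap either. Dbp, the factor first known for binding the albumin promoter, was at 6.90, 6.09, 5.63 and 3.64 TPM with western diet, against 8.06, 11.5, 8.89 and 9.42 TPM in control. Western diet replicate 4 was the lowest library for Dbp and at the same time the highest of its group for Tef.

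Summed over the 3 PAR bZIP genes, western diet libraries held 38.9 to 39.9 TPM and controls 54.0 to 64.9 TPM. The sum varied less within the western diet group (39.5 ± 0.435 TPM) than in control (59.5 ± 4.74 TPM; SD, n = 4 each), although Tef (SD 1.94 TPM) and Dbp (SD 1.39 TPM) each varied by more than that sum. Tef made up most of it, with 79.7 ± 4.28% in western diet hearts and 75.2 ± 0.599% in control hearts (SD, n = 4 each). Hlf made up 6.20 ± 1.13% with western diet and 8.93 ± 0.935% in control, so the mixture as well as the total differed in mean. In western diet replicate 4 the share of Dbp was 9.13%, against 14.5 to 17.5% in the other 3 western diet libraries and 14.9 to 17.7% in the controls.

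**Figure D1:**
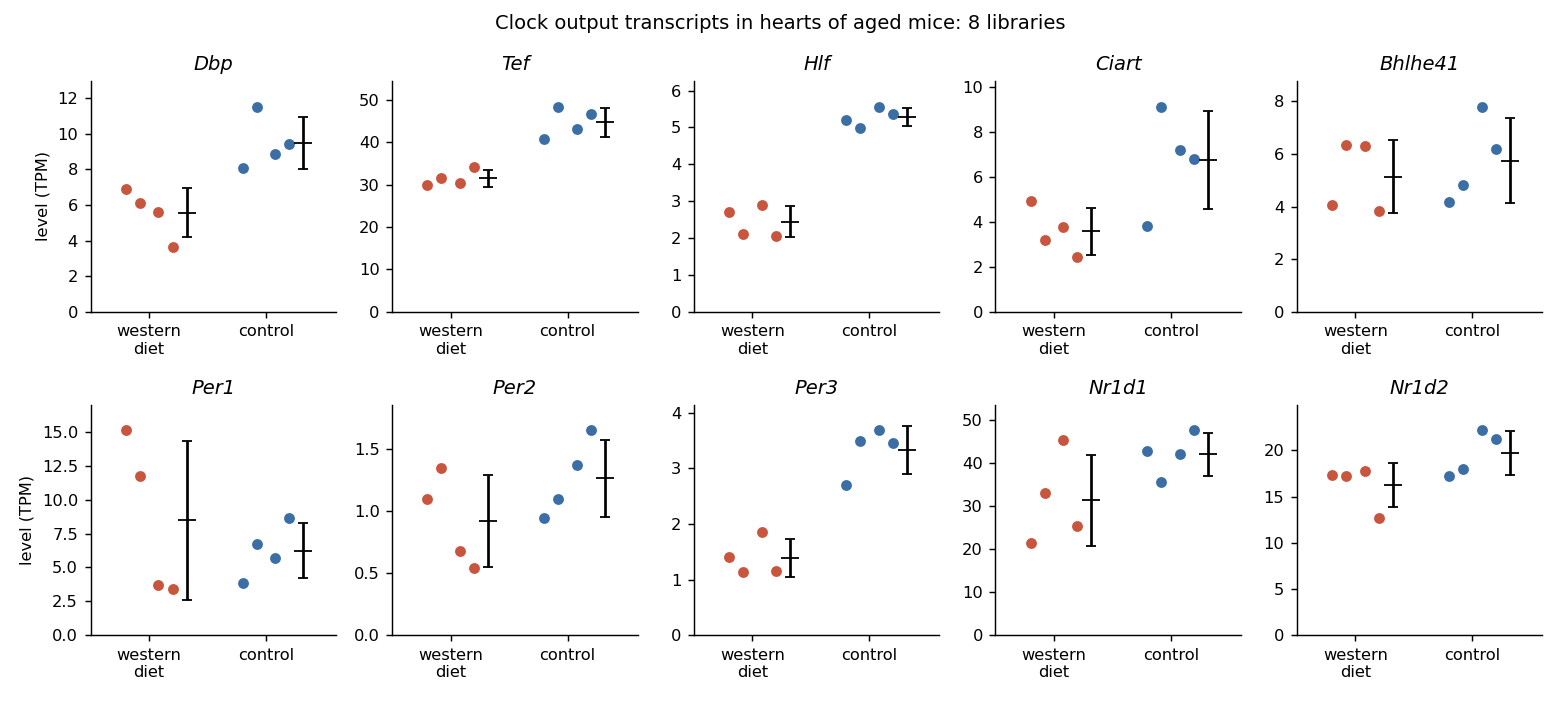
Level in TPM of each clock output gene in the 4 western diet and 4 control libraries (points, in replicate order from left to right), with the group mean and SD as a bar at the right of each group. Dbp, Tef, Hlf and Per3 have no overlap between the groups, and the western diet points of Per1 fall above and below all of its controls.

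Ciart, which encodes the repressor CHRONO, and Bhlhe41, which encodes the E-box repressor DEC2, act on the same activator but differed in pattern. Ciart was at 4.92, 3.19, 3.79 and 2.45 TPM with western diet, against 3.84, 9.14, 7.20 and 6.82 TPM in control. Control replicate 1 was the exception, since it lay under western diet replicate 1 and near replicate 3, while the other 3 controls were above every western diet library. Ciart averaged 3.59 ± 1.04 TPM with western diet and 6.75 ± 2.19 TPM in control (SD, n = 4 each). Bhlhe41 was at 4.08, 6.35, 6.32 and 3.82 TPM with western diet, against 4.17, 4.83, 7.80 and 6.19 TPM in control. Its groups overlapped over most of their range, and its log2 fold change of -0.13 was smaller than its SE of 0.19.

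The 3 period genes, whose proteins hold back CLOCK and BMAL1, did not share a pattern. Per3 was at 1.40, 1.14, 1.86 and 1.16 TPM with western diet, against 2.71, 3.49, 3.68 and 3.45 TPM in control. Its groups were apart, and its ratio of means, 0.417, was the lowest of the 10 genes. Per2 was at 1.10, 1.35, 0.680 and 0.544 TPM with western diet, against 0.944, 1.10, 1.37 and 1.65 TPM in control, and its groups overlapped. Per1 was at 15.1, 11.7, 3.73 and 3.38 TPM with western diet, against 3.86, 6.76, 5.69 and 8.65 TPM in control. Western diet replicates 1 and 2 were thus above every control and replicates 3 and 4 below every control, so the mean of 8.49 ± 5.86 TPM (SD, n = 4) describes no single western diet library.

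The make-up of the period transcripts followed Per1. In western diet replicates 1 and 2 Per1 made up 85.8% and 82.5% of the summed TPM of the 3 genes, and in replicates 3 and 4 59.5% and 66.6%, against 51.4 to 62.9% in the controls. Per3 made up 7.96% and 8.03% in western diet replicates 1 and 2, 29.6% and 22.8% in replicates 3 and 4, and 25.1 to 36.0% in the controls. The summed level was 5.08 to 17.6 TPM with western diet and 7.51 to 13.7 TPM in control, so the western diet range enclosed the control range.

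Per1 is also known as a gene switched on directly by glucocorticoid hormone, and 9 other genes known for that response were set beside it. Western diet replicates 1 and 2 were the 2 highest of the 8 libraries for Per1 and for 8 of these 9 genes. Over all genes tested 24.0% had these libraries as their 2 highest, and of the other 9 clock outputs none had. Of 14 further genes known to follow the clock, described below, 6 had these libraries as their 2 highest. Among these 6 were Tsc22d3 and Klf9, which also belong to the 9 glucocorticoid-induced genes. All 4 red cell markers had them too, with Hba-a1 at 1912, 736, 243 and 342 TPM with western diet against 279 to 574 TPM in control. This comparison was chosen after the values of Per1 were seen. None of the 9 passed the test between the diet groups (limma, Benjamini-Hochberg adjusted p under 0.05; 7 had an unadjusted p under 0.05, as had 11.7% of all tested genes), and the mean was higher with western diet for all 9 (median log2 fold change 0.86). Those of smallest p were Cdkn1a, a cell cycle inhibitor, at 56.7, 36.5, 12.5 and 12.5 TPM with western diet against 5.63 to 8.12 TPM in control, and Sgk1, a kinase, at 36.8, 35.2, 25.1 and 23.6 TPM with western diet against 15.6 to 24.3 TPM in control. Fkbp5, a chaperone of the glucocorticoid receptor named here after its values were seen, was at 20.2, 14.4, 5.88 and 4.59 TPM with western diet, against 3.07 to 4.80 TPM in control. The gene of the 9 for which western diet replicates 1 and 2 were not the 2 highest was Zbtb16, with its highest level in replicate 3. It was at 6.38, 9.10, 10.6 and 3.40 TPM with western diet, against 2.88 to 3.76 TPM in control. The part of this response, or of red cell transcripts, in the level of Per1 was not tested.

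**Figure D2:**
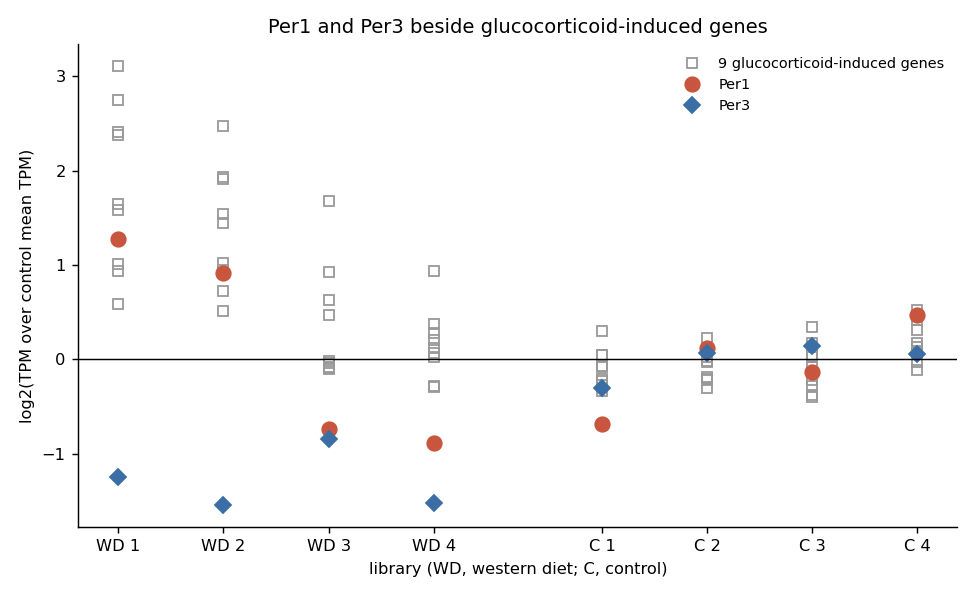
Log2 ratio of each library's TPM to the control mean for Per1, Per3 and 9 glucocorticoid-induced genes, western diet (WD) libraries at the left and controls (C) at the right. Per1 lies above the control mean in western diet replicates 1 and 2, where the glucocorticoid-induced genes are also high, and below it in replicates 3 and 4, whereas Per3 lies below it in all 4.

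The REV-ERB genes, which encode heme-binding repressors of Arntl, were lower in mean with western diet but overlapped with control. Nr1d1 was at 21.4, 33.0, 45.4 and 25.5 TPM with western diet, against 42.8, 35.6, 42.2 and 47.6 TPM in control. Western diet replicate 3 was inside the control range and the other 3 were below it. Nr1d2 was at 17.3, 17.2, 17.8 and 12.6 TPM with western diet, against 17.3, 18.0, 22.1 and 21.2 TPM in control. Western diet replicates 1 to 3 thus lay beside the lowest controls, and replicate 4 lay below all other libraries. The order of Nr1d1 over the western diet libraries, lowest in replicate 1 and highest in replicate 3, was not that of any period gene.

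Nr1d1 and Dbp share bases with a gene on the opposite strand, so reads could be credited to the wrong one. In GENCODE vM21 on GRCm38, Nr1d1 (ENSMUSG00000020889, chromosome 11, 98767932 to 98775333, minus strand) shares 263 exonic bases with Thra, the thyroid hormone receptor alpha gene. Dbp (ENSMUSG00000059824, chromosome 7, 45705088 to 45710203, plus strand) shares 539 exonic bases with Sphk2, a sphingosine kinase. The labels name a stranded kit, but whether the counting used strand is not given in the sources used here. Thra averaged 37.8 ± 7.13 TPM with western diet and 37.6 ± 5.02 TPM in control, and Sphk2 averaged 5.43 ± 0.863 TPM with western diet and 4.09 ± 0.667 TPM in control (SD, n = 4 each). Whether reads were credited to the wrong gene was not tested. Per3 (chromosome 4, 151003652 to 151044665) lies inside the span of Camta1 on the same strand with no shared exonic base. Hlf (chromosome 11, 90336536 to 90390895) overlapped no other gene. Tef and Bhlhe41 share exonic bases with genes on the other strand (Gm17597 and Gm43909), and Ciart lies inside the span of another (C920021L13Rik) with no shared exonic base; these 3 genes were not analysed here.

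On the log2(TPM + 1) scale, on which changes of low genes come out smaller than in TPM, 9 of the 10 genes had the lower mean with western diet, as had 33.6% of all tested genes. The median log2 fold change of the 10 was -0.48, and that of all 10969 tested genes was 0.06. The values were -0.87 (SE 0.11) for Hlf, -0.86 (SE 0.13) for Per3, -0.74 (SE 0.22) for Ciart and -0.69 (SE 0.16) for Dbp. They were -0.49 (SE 0.09) for Tef, -0.46 (SE 0.19) for Nr1d1, -0.27 (SE 0.13) for Nr1d2 and -0.25 (SE 0.15) for Per2, and 0.20 (SE 0.40) for Per1. Hlf, Per3 and Tef, 3 of the 10, passed the limma test lower (Benjamini-Hochberg adjusted p under 0.05 over all tested genes), where 0.0729% of tested genes were called lower and 0.301% in either direction. Dbp, Hlf, Per3 and Tef, 4 of the 10, had all western diet libraries below all controls, where 1.75% of tested genes had. Since the genes were chosen with this contrast known, these counts describe them and nothing is read from them. The number past the test was 1 without control replicate 2 or 3 (Hlf), 0 without control replicate 4, and 0 without the 3 libraries with atrial transcripts. Tef passed in 3 of 19 alternative settings, the other pseudocounts and without western diet replicate 4, and in none of the 3 scalings. Hlf passed in 15 and Per3 in 11 of the 18 settings in which each was fitted. With a term for Y-linked transcripts, or with the libraries that hold them alone, the genes past the test were Dbp and Hlf.

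**Figure D3:**
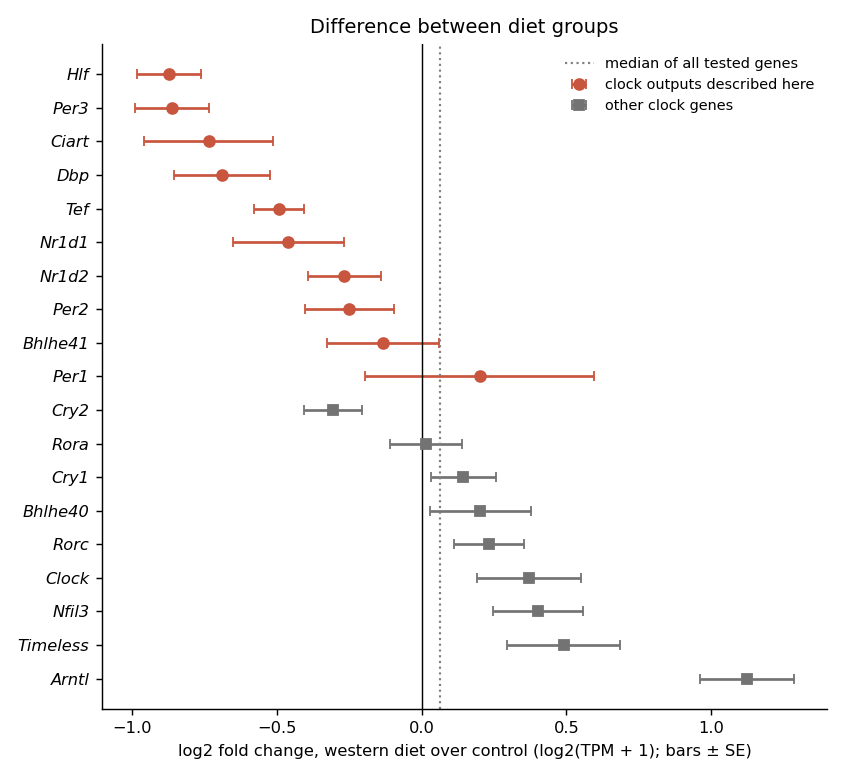
Log2 fold change of western diet over control on the log2(TPM + 1) scale with its SE for the 10 clock outputs and the 9 other clock genes that were tested. The clock outputs run between -0.87 for Hlf and 0.20 for Per1, and Arntl stands at 1.12.

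The level order of the genes was close to the same in both groups. Tef and Nr1d1 were highest and overlapped in both groups, followed by Nr1d2, then a middle group (Dbp, Per1, Ciart, Bhlhe41 and Hlf), then Per3 and Per2. In the middle group each gene overlapped with the next by mean, but Hlf lay below Dbp without overlap in both groups. With western diet, Hlf also lay below Per1 and Bhlhe41 without overlap. Nr1d2 stood clear of this middle group in control, but with western diet its range overlapped that of Per1. In control, Hlf lay above Per3 and Per3 above Per2 without overlap. With western diet, Hlf still lay above Per3 without overlap, while Per3 and Per2 overlapped. Within the middle group Per1 had rank 4 of the 10 genes by mean with western diet and rank 6 in control, and Ciart rank 7 with western diet and rank 5 in control.

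**Figure D4:**
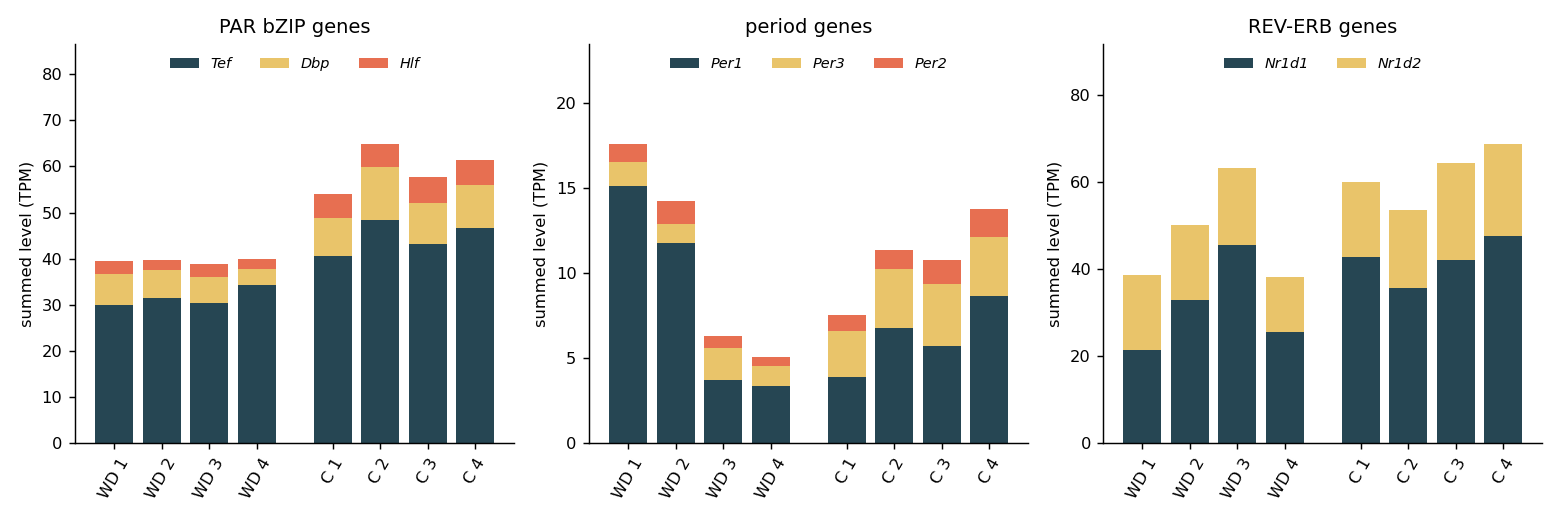
Summed TPM of the PAR bZIP, period and REV-ERB genes in each western diet (WD) and control (C) library, stacked by gene. The PAR bZIP sum is 38.9 to 39.9 TPM for western diet and 54.0 to 64.9 TPM for control, while the period sum is 17.6 TPM in western diet replicate 1 and 5.08 TPM in replicate 4.

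Spread between libraries of 1 group also differed between the genes. Within the western diet group, Per1 had a larger SD of log2(TPM + 1) than 99.5% of tested genes (SD 0.97), and Tef a larger one than only 9.54% (SD 0.08). In control, Ciart was above 97.5% of tested genes (SD 0.45) and Per1 above 97.0% (SD 0.42), while Hlf was above 8.09% (SD 0.06). Control replicate 1 was the lowest control for 8 of the 10 genes (all but Hlf and Nr1d1), where it was the lowest control for 19.6% of tested genes. Western diet replicate 4 was the lowest of its group for 7 of the 10, but also for 56.3% of all tested genes.

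Because western diet replicate 4 and the controls share Y-linked transcripts, it can be set against the controls alone. In this comparison, in which the western diet group is 1 library assumed to vary as the controls do, all 10 genes were lower, as were 64.2% of all tested genes. The log2 fold changes were -1.16 (SE 0.19) for Dbp, -1.12 (SE 0.34) for Ciart, -1.03 (SE 0.16) for Hlf, -1.001 (SE 0.19) for Per3 and -0.37 (SE 0.12) for Tef. Per1 was at -0.68 (SE 0.32) here, against 0.20 with all libraries. Without the 3 libraries with atrial transcripts the values were -0.95 (SE 0.23) for Ciart, -0.87 (SE 0.22) for Dbp, -0.87 (SE 0.18) for Per3, -0.80 (SE 0.17) for Hlf and -0.58 (SE 0.15) for Tef.

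Of the other clock genes, 9 of 12 were tested, of which 1 rose, 0 fell and 8 did not pass. The gene that rose was Arntl, at 3.22, 5.25, 4.32 and 4.19 TPM with western diet, against 1.70, 0.950, 1.95 and 1.07 TPM in control (log2 fold change 1.12, SE 0.16, limma adjusted p = 0.0169), where 0.228% of tested genes were called higher. It did not pass without control replicate 2 or 4. In TPM, Hlf and Per3 were below Arntl in all 4 western diet libraries and above it in all 4 controls.

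Among the remaining clock genes, Cry2, a cryptochrome that works with the period proteins, was at 8.11, 6.72, 7.29 and 6.48 TPM with western diet, against 8.50, 8.55, 9.86 and 9.34 TPM in control (limma adjusted p = 0.262). It was the 1 tested gene of that list with a lower mean, and its groups did not overlap. Nfil3, which competes with the PAR bZIP factors for the D-box and represses there, was at 6.43 ± 1.32 TPM with western diet and 4.62 ± 0.907 TPM in control (limma adjusted p = 0.353). Npas2, a relative of Clock, was at 1.16 ± 0.239 TPM with western diet and 0.431 ± 0.117 TPM in control (SD, n = 4 each), and was not tested because only 3 libraries reached 1 TPM. Cry1, the other cryptochrome, had a log2 fold change of 0.14 (SE 0.11) and Clock of 0.37 (SE 0.18). Kinases and ubiquitin ligases that set the life span of the period and cryptochrome proteins gave 0 calls among 7 tested (0 at an unadjusted p under 0.05). Their smallest p were those of Fbxw11, at 15.1 ± 2.20 TPM with western diet and 12.2 ± 2.46 TPM in control, and Csnk1a1, at 54.5 ± 4.12 TPM with western diet and 47.96 ± 7.96 TPM in control (SD, n = 4 each).

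**Figure D5:**
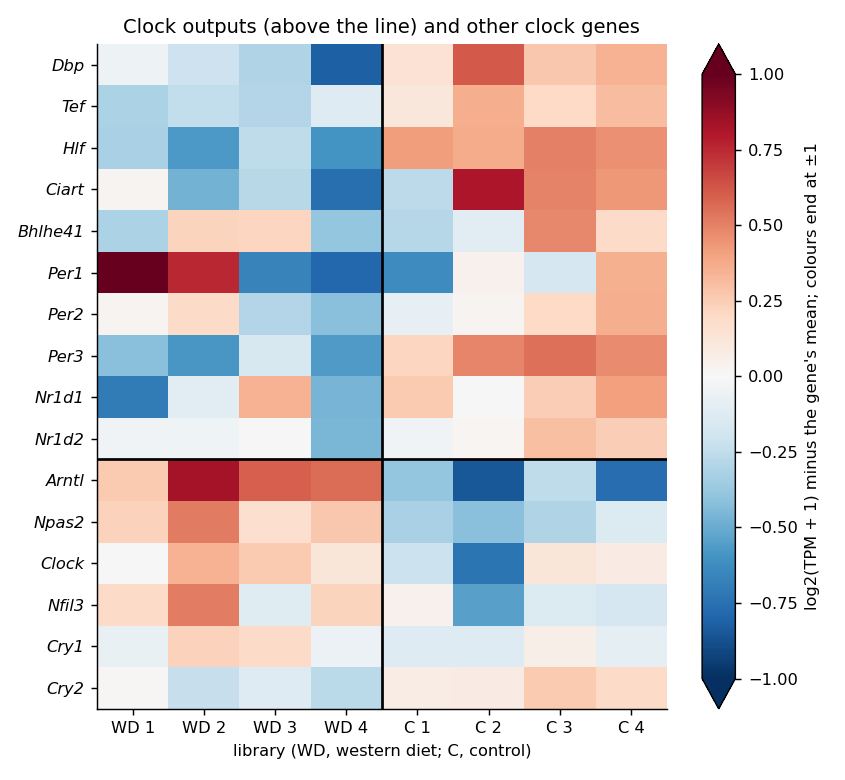
Log2(TPM + 1) minus each gene's mean over the 8 libraries (colour) for the 10 clock outputs above the line and 6 other clock genes below it, with western diet (WD) libraries at the left and controls (C) at the right. Hlf, Per3, Tef and Dbp are below their means in every western diet library, Arntl above its mean there, and Per1 splits the western diet group.

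Genes known to follow the clock in many tissues or in heart gave 0 calls among 14 (limma, adjusted p under 0.05). Of the 14, 6 had an unadjusted p under 0.05, as had 11.7% of all tested genes. In mean, 7 were higher and 7 lower with western diet, where 33.6% of all tested genes were lower. The smallest p were those of Tspan4, a tetraspanin, at 16.3, 12.4, 12.2 and 11.0 TPM with western diet against 16.9, 18.5, 19.2 and 20.2 TPM in control (limma adjusted p = 0.116), and Leo1, a transcription elongation factor, at 8.95 ± 1.23 TPM against 6.84 ± 0.980 TPM in control (limma adjusted p = 0.322). Tspan4 did pass after median-of-ratios scaling, after quantile normalization and without western diet replicate 1. Genes known from liver as targets of the PAR bZIP factors gave 0 calls among 4 tested (1 at an unadjusted p under 0.05), with 3 of the 4 higher in mean. Pdxk, which makes active vitamin B6, was at 6.10, 6.997, 4.21 and 3.84 TPM with western diet, against 3.46 to 4.20 TPM in control, and Por, the electron donor of cytochrome P450 enzymes, at 21.7, 23.8, 17.2 and 15.3 TPM against 15.3 to 17.0 TPM in control. For both, as for Per1, western diet replicates 1 and 2 were the 2 highest libraries.

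Of the temperature-responsive genes, 6 of 8 were tested, of which 0 rose, 1 fell and 5 did not pass, where 0.0729% of all tested genes were called lower. The gene that fell was Rbm3, a cold-inducible RNA-binding protein, at 27.4 ± 2.05 TPM with western diet and 50.01 ± 4.16 TPM in control (SD, n = 4 each; limma adjusted p = 0.00527). Cirbp, the related cold-inducible protein named here beside it, was at 25.7 ± 2.88 TPM with western diet and 35.4 ± 2.72 TPM in control (limma adjusted p = 0.101), and its groups did not overlap. The other 4 tested genes of the list, which encode heat shock proteins, had the higher mean with western diet and did not pass. Of these, chosen after their values were seen, Hsph1 was at 9.40, 8.08, 6.37 and 8.64 TPM with western diet, against 6.24, 5.63, 3.76 and 5.84 TPM in control, with no overlap. Hsp90aa1 was at 82.7 ± 10.7 TPM with western diet and 62.5 ± 11.3 TPM in control (SD, n = 4 each). Of the 6 tested genes 5 had an unadjusted p under 0.05, as had 11.7% of all tested genes. A lower mean with western diet was found for 33.6% of all tested genes.

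The mean profile of the 10 genes was compared with 10437 other tested genes by the root mean square distance between centred log2(TPM + 1) values over the 8 libraries. The nearest were Cetn3, a centrin, at 0.11, followed by Dtd2, a tRNA proofreading enzyme, Stc2, a stanniocalcin, Hspb3, a small heat shock protein, and Tspan4, at 0.12 each. The profile itself had a root mean square of 0.28. Cetn3 was at 14.5, 12.5, 13.2 and 8.87 TPM with western diet, against 15.9, 17.3, 15.6 and 19.3 TPM in control. Nearest to the mirror image were Mndal (0.12), Rab4a (0.12), Tdrp (0.13), Sp110 (0.13) and Slc15a3 (0.13), each with its highest level in western diet replicate 4. None of these 10 passed the limma test.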

How the data were processed

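Per the labels' protocols, heart RNA was extracted with a Qiagen kit, and stranded Illumina TruSeq libraries were made from its polyadenylated fraction. The authors deposited 1 table of gene-level TPM for 30153 Ensembl identifiers in 8 libraries. Kallisto, DESeq2 and GRCm38 appear in the submitters' processing notes, without versions or roles. TPM values are shares, so a very abundant transcript lowers the rest.

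Identifiers were named from GENCODE vM21 (29732 matched). Groups came from GEO's labels, and replicates are numbered in accession order. The 10969 genes that reached 1 TPM in 4 or more libraries were fitted in R 4.3.3 with limma 3.58.1 on log2(TPM + 1), with the group as the only term and an intensity trend in the empirical Bayes step. Tests were two-sided, and calls are at a Benjamini-Hochberg adjusted p under 0.05 over all of them. On simulated data with 200 of 10969 genes changed, 91.5% of 2-fold and 98.6% of 4-fold changes in TPM + 1 were recovered in 10 runs, and 5.08% of calls were false. The simulated noise was independent between genes, so it held none of the differences between libraries described above. These rates need not hold for the measured libraries. The genes and lists were chosen with earlier results of these data known. The rule for naming took the 10 clock outputs, the other clock genes, up to 4 genes past the threshold of each other list or the 2 of smallest p, overlapping genes, and the 5 nearest to the mean profile and to its mirror image. Alternatives were 2 pseudocounts, 2 filters, 3 scalings, no trend, a term for Y-linked transcripts, subsets of libraries and leaving out each library.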

Additional observations from a re-analysis of the deposited data

Results flagged for a closer look

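Among the 10 clock outputs, 12 other clock genes and 14 clock-driven genes, 2 of 72 groups of 4 libraries held a library far from the other 3, judged by the gap to its nearest neighbour over the group's range; chance flags about 1 in 20 groups. Nr1d2 was at 12.6 TPM in western diet replicate 4, below the other 3 of its group. Cry1 was at 2.72 TPM in control replicate 3, above the other 3 of its group.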

How the results depend on the processing

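No paired analysis was possible because the labels give no replicate numbers that pair libraries between the groups. Of 187 fold changes of the 10 clock outputs under the 19 alternatives, 181 kept their sign. The exceptions were 5 of Per1 (as low as -0.68) and 1 of Bhlhe41 (0.0041 without control replicate 3). The filters and the trend setting leave each fold change as it was, so those values kept their sign by construction. The Y-linked term and the libraries with Y-linked transcripts alone give the same fold change for each gene, so those values are counted again. Of the 10 genes, 3 passed the threshold with all settings as described and 0 without a filter, with a mean of at least 5 TPM (7 of the 10 then fitted) and without the libraries with atrial transcripts, and 0 to 3 when 1 library was left out. With a mean of at least 5 TPM, Hlf, Per3 and Per2 are not fitted, so the 0 there is no test of Hlf and Per3. All tested genes gave 33 calls, and 5 without a filter, 15 with a mean of at least 5 TPM, 61 after quantile normalization (40 higher and 21 lower, against 25 and 8), 54 with a term for Y-linked transcripts, 76 with the libraries with Y-linked transcripts alone, 5 without those with atrial transcripts, and 8 to 95 when 1 library was left out. Other clock genes gave 1 call, but 0 without a filter, with a mean of at least 5 TPM (Arntl is then not fitted), with the Y-linked term or with those libraries alone, and 0 to 1 when 1 library was left out. Clock-driven genes gave 0, but 1 after median-of-ratios scaling and after quantile normalization, and 0 to 1 when 1 library was left out. A pseudocount of 0.1 gave -1.09 for Hlf and -1.22 for Per3, as it damps low genes less. The Y-linked term, which rests on western diet replicate 4, and the libraries with Y-linked transcripts alone both gave -1.03 for Hlf, -0.68 for Per1, -0.59 for Nr1d2, -0.37 for Tef, -0.54 for Per2 and -1.16 for Dbp. The cause of the other changes was not tested. The labels give no time of day, and TPM keeps no depth, so the precision of Per2, Per3 and Hlf, the lowest genes, is known only from the 4 libraries in each group.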
